A study of Mus musculus with 4 samples.

Results

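Transcript levels of 9 growth genes were described in 4 RNA-seq libraries made from cells sorted as CD4 T cells out of mouse spleen. The genes were Myc, the amino acid transporter genes Slc7a5 and Slc3a2, the transferrin receptor gene Tfrc, the polyamine synthesis gene Odc1 and the nucleolar genes Ncl, Npm1, Nop56 and Tcof1. They were taken by symbol from a deposited table of 16230 genes, which held all 9. The unit is FPKM, in which fragments are divided by transcript length and by library depth, so levels can be set side by side between genes per length. The members were chosen by these same FPKM values, compared between the groups on log2(FPKM + 1), so their differences between the groups are given as a description with no test. The question asked of them was whether Tcof1 moves with the others.

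The ERα-deficient-labelled libraries (genotype CD4creERafl/fl, 2 libraries) came from donor cells whose Esr1 alleles, which encode oestrogen receptor α, are flanked by loxP sites and which carry a Cre recombinase under Cd4 control. The control libraries (genotype ERafl/fl, 2 libraries) came from donor cells with the flanked alleles and no Cre. In both groups, naive CD4 T cells had been injected into Rag-/- mice, colitis had developed, and cells positive for CD3 and CD4 were sorted from the spleens at 8 weeks. Rag-/- hosts make no T or B cells of their own but keep myeloid cells, NK cells and red cell precursors, and Cre under Cd4 control acts in every T cell that passes through the CD4-expressing stage in the thymus. Whether a library is 1 mouse or a pool, and the age and sex of the mice, are not stated in the labels, so the spread between libraries of a group may be technical and a p measures only that spread. Esr1 had 0 and 1.96 FPKM in libraries 1 and 2 labelled ERα-deficient, against 0.23 and 0 FPKM in controls 1 and 2, which does not check the labels.

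The libraries held an estimated 493000 and 549000 fragments in those labelled ERα-deficient, against 681000 and 655000 in controls, at which 1 fragment on a transcript of 2000 bases is worth 0.73 to 1.01 FPKM. All 22 tested T cell markers were lower in both ERα-deficient-labelled libraries than in both controls, with summed levels of 426 and 387 FPKM in the ERα-deficient-labelled libraries, against 1997 and 1558 FPKM in controls and none of the 22 listed at 0. All 21 tested macrophage and monocyte markers were higher without overlap, with sums over the 22 listed of 3024 and 3476 FPKM, against 109 and 531 FPKM in controls, where 7 and 1 of them were listed at 0. Of the other marker lists, dendritic cell, NK cell and neutrophil markers had a higher mean for 11 of 12, 8 of 10 and 14 of 14 tested genes, and erythroid and B cell markers for 12 of 13 and 3 of 4, with median differences of 1.64 and 1.06. Of the 13 erythroid markers, 2 were higher without overlap (15.4%, against 23.2% of all tested genes). In a bulk library, fewer cells of a type and less RNA per cell cannot be told apart. Over the 12896 genes with a mean of at least 1 FPKM, limma called 2 genes higher (0.0155%) and 5 genes lower (0.0388%) at an adjusted p under 0.05, while 2990 genes (23.2%) were higher and 3310 genes (25.7%) lower without overlap between the groups' libraries. At an unadjusted p under 0.05, 1173 genes (9.1%) were higher and 877 genes (6.8%) lower. The median difference of all tested genes was -0.07 on the log2(FPKM + 1) scale. Scaling each library to the geometric mean of its T cell markers moved this median to 1.92, and differences on that scale are given beside 1.92. The 1 added to each FPKM makes this shift smaller for low genes. Slc7a5 went from -0.81 to 0.90, while Nop56 went from -0.18, below the median, to 2.12, above it. A place above or below 1.92 thus depends on the level of a gene as well as on the groups.

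Myc is a transcription factor that binds DNA as a dimer with Max and raises the expression of genes for nutrient uptake, nucleotide and polyamine synthesis and ribosome production. When a T cell is stimulated through its antigen receptor, Myc is induced, amino acid and iron import increase and the nucleolus enlarges before the cell divides. In the nucleolus, RNA polymerase I transcribes ribosomal DNA, small nucleolar RNA-protein particles modify the transcript, and assembly factors fold it with ribosomal proteins into the small and the large subunit.

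The 9 genes did not share a direction. Myc and Tcof1 were higher in both ERα-deficient-labelled libraries than in both controls, Ncl and Npm1 were lower in both (on the scale of T cell markers both were higher, by less than the 1.92 of all genes), and the other 5 overlapped between the groups. By mean, 4 of the 9 were higher and 5 lower, where 46.4% of all tested genes had a higher and 53.6% a lower mean. Since these values chose the genes, nothing is read from their counts against the 23.2% and 25.7% of all tested genes without overlap. The 8 genes other than Tcof1 had differences between -0.82 and 0.85 with a median of -0.12. Tcof1 differed by 3.07, which is 3.19 above that median and 2.22 above the highest of the others. Summed over the 9 genes the level was nearly the same in all libraries, at 1035 and 1217 FPKM in the ERα-deficient-labelled libraries, against 1091 and 1187 FPKM in controls. Within that sum Tcof1 took 17.4% and 18.9% in the ERα-deficient-labelled libraries, against 1.62% and 2.58% in controls.

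**Figure D1:**
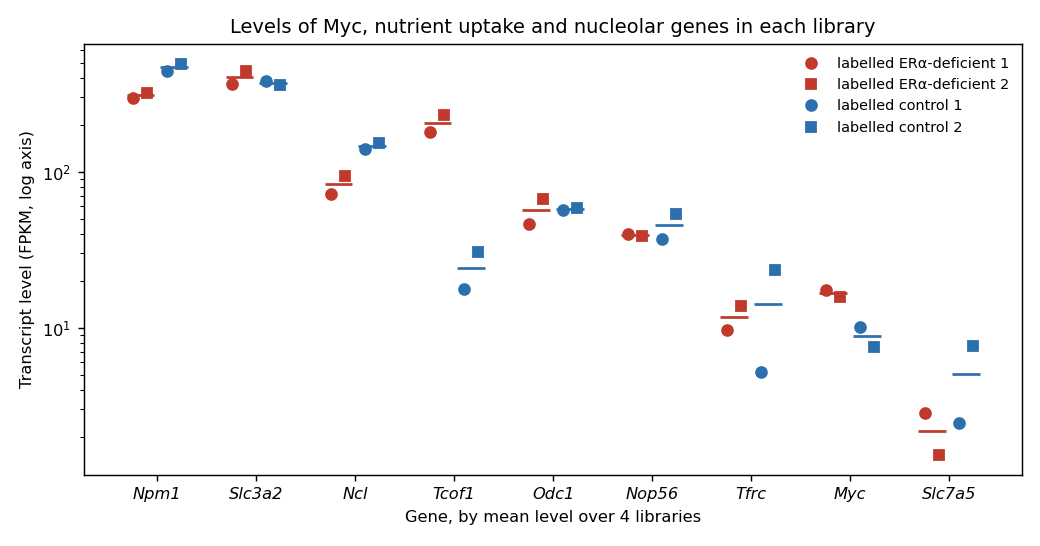
FPKM of each gene (log axis) in libraries 1 (circles) and 2 (squares) labelled ERα-deficient (red) and control (blue), with a bar at each group's mean and genes ordered by their mean over the 4 libraries. Tcof1 stands at 180 and 230 FPKM in the ERα-deficient-labelled libraries, against 17.7 and 30.6 FPKM in controls, while Tfrc and Slc7a5 spread more widely within controls than between the group means.

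Myc (NCBI gene 17869; GRCm38 chromosome 15, 61985341 to 61990361, plus strand) had 17.5 and 15.7 FPKM in libraries 1 and 2 labelled ERα-deficient, against 10.2 and 7.52 FPKM in controls 1 and 2. Both ERα-deficient-labelled libraries stood above both controls, with means of 16.6 ± 1.26 and 8.84 ± 1.87 FPKM (SD, n = 2 each), a ratio of 1.87. On the log2(FPKM + 1) scale the difference was 0.85 ± 0.37 (SE), and 2.98 when scaled to T cell markers. These levels rest on few fragments. On its shortest annotated transcript of 1821 bases, Myc had about 15.7 and 15.7 fragments in the ERα-deficient-labelled libraries, against 12.6 and 9.0 in controls, and on its longest of 2338 bases 20.1 and 20.1, against 16.2 and 11.5. The exact Poisson 95% interval of the count in control 2 ran from 4.1 to 17.1 fragments, which overlaps the 9.1 to 26.0 of each library labelled ERα-deficient, and such intervals cover counting error only. The long non-coding RNA gene Pvt1, which lies 47625 bases from Myc and is the nearest gene of the table on that side, had 0 and 0.64 FPKM in the ERα-deficient-labelled libraries, against 2.9 and 2.92 FPKM in controls.

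Genes for the dimer partners and antagonists of Myc had no common direction. Of 10 tested, 7 had a higher and 3 a lower mean in the ERα-deficient-labelled libraries, with 1 higher and 1 lower without overlap (10% each, against 23.2% and 25.7% of all tested genes) and a median difference of 0.12 (2.11 on the scale of T cell markers, where all genes had 1.92). limma called 0 of them, with 0 at an unadjusted p under 0.05 (9.1% higher and 6.8% lower of all tested genes). Voom called 0 of the 4 it could test. Max, the obligate partner, had 37.2 and 19.1 FPKM in the ERα-deficient-labelled libraries, against 23.2 and 17.4 FPKM in controls, an overlap. Mxd1, which competes with Myc for Max and represses its targets, had 9.33 and 6.86 FPKM, against 3.66 and 4.15 FPKM in controls (difference 0.88 ± 0.43, SE; adjusted p = 0.39 in limma). Mlx, a partner of the glucose-sensing Mondo proteins, had 9.21 and 6.88 FPKM in the ERα-deficient-labelled libraries, against 12.98 and 14.8 FPKM in controls (difference -0.73 ± 0.38, SE; adjusted p = 0.418 in limma).

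Slc7a5 and Slc3a2 encode the light and heavy chains of a heterodimer that imports large neutral amino acids such as leucine. Slc7a5 (NCBI gene 20539; chromosome 8, 121881146 to 121907686, minus strand) had 2.82 and 1.52 FPKM in the ERα-deficient-labelled libraries, against 2.43 and 7.65 FPKM in controls. Control 2 stood apart from the other 3 libraries, and the groups overlapped. On its transcript of 3517 bases these values come to about 4.9 and 2.9 fragments in the ERα-deficient-labelled libraries, against 5.8 and 17.6 in controls. The difference of -0.81 ± 0.64 (SE) was smaller than the gap of 1.33 between the controls on the same log2 scale, and it was -0.14 without control 2 and -1.48 without control 1.

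Slc3a2 (NCBI gene 17254; chromosome 19, 8706882 to 8723369, minus strand) had 367 and 440 FPKM in the ERα-deficient-labelled libraries, against 382 and 359 FPKM in controls. The 4 levels lay close together and overlapped, with a difference of 0.12 ± 0.24 (SE) that was -0.01 without library 2 labelled ERα-deficient. Per length, the heavy chain gene stood 130 and 289 times above the light chain gene in the ERα-deficient-labelled libraries, against 157 and 46.9 times in controls. This ratio is uncertain on both sides, because Slc7a5 rests on a few fragments and transcripts of Slc3a2 share at least 100 bases, and up to 182, at 95% identity or more with transcripts of 335 other genes, 230 of them in the table.

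Other amino acid transporter genes were likewise mixed. Of 13 tested, 5 had a higher and 8 a lower mean in the ERα-deficient-labelled libraries, 2 were higher and 2 lower without overlap (15.4% each, against 23.2% and 25.7% of all tested genes), and the median difference was -0.10 (1.89 on the scale of T cell markers). limma called 0, with 1 higher and 1 lower at an unadjusted p under 0.05 (9.1% and 6.8% of all tested genes). Voom called 0 of the 8 it could test. Slc7a8, another light chain of the Slc3a2 heterodimer, had 9.47 and 6.76 FPKM in the ERα-deficient-labelled libraries, against 0 and 1.12 FPKM in controls (difference 2.63 ± 0.60, SE; adjusted p = 0.159 in limma). Slc1a5, a glutamine importer, had 5.05 and 18.1 FPKM in the ERα-deficient-labelled libraries, against 35.2 and 26.6 FPKM in controls (difference -1.56 ± 0.61, SE; adjusted p = 0.308 in limma). Among 24 tested genes of the mTORC1 growth pathway and its amino acid sensors, 16 had a higher and 8 a lower mean, with 9 higher and 4 lower without overlap (37.5% and 16.7%, against 23.2% and 25.7% of all tested genes) and a median of 0.14 (2.18 on the scale of T cell markers). limma called 0 of these, with 0 higher and 1 lower at an unadjusted p under 0.05 (9.1% and 6.8% of all tested genes). Voom called 0 of the 15 it could test. Lamtor2, a subunit of the complex that anchors mTORC1 to lysosomes, had 7.14 and 9.62 FPKM in the ERα-deficient-labelled libraries, against 35.9 and 16.2 FPKM in controls (difference -1.44 ± 0.49, SE; adjusted p = 0.258 in limma). Sesn1, which encodes a sestrin that restrains mTORC1, had 6.09 and 8.96 FPKM, against 3.59 and 2.87 FPKM in controls (difference 0.996 ± 0.45, SE; adjusted p = 0.359 in limma).

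Tfrc encodes the receptor that takes up iron-loaded transferrin, and it is known for control at the level of its messenger RNA. When iron is scarce, iron regulatory proteins bind stem-loops in the 3′ untranslated region and protect the transcript from decay. A search of the annotated transcript found 4 matches to a strict pattern of the iron-responsive element. They are shown because such elements are the part of the transcript by which iron is known to set its level. An element that departs from the pattern would be missed, so the 4 need not be the whole set. They lie on the plus strand of GRCm38 chromosome 16 at chr16:32631222-32631244, chr16:32631601-32631623, chr16:32631666-32631688 and chr16:32631713-32631735, each of 23 bases, with the 6-base loop in capitals.
Tfrc element 1: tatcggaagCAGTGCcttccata
Tfrc element 2: tatcgggagCAGTGTcttccata
Tfrc element 3: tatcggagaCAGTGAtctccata
Tfrc element 4: tatcgggaaCAGTGTttcccata
The search took a C, 5 bases, the loop CAGTGN and 5 bases that pair with the first 5, pairs of G with T included, on the transcript strand. It matched at least once in 565 of 58797 protein-coding transcripts of the GENCODE annotation (0.96%) and 4 or more times in 1 of them, and a match describes the letters only.

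Tfrc (NCBI gene 22042; chromosome 16, 32608896 to 32632794, plus strand) had 9.64 and 13.7 FPKM in the ERα-deficient-labelled libraries, against 5.20 and 23.3 FPKM in controls. Both ERα-deficient-labelled libraries lay between the controls. The difference of 0.03 ± 0.70 (SE) was far smaller than the gap of 1.97 between the controls, and it was -0.96 without control 1 and 1.01 without control 2. On 4890 bases the levels come to about 23.2 and 36.8 fragments in the ERα-deficient-labelled libraries, against 17.3 and 74.7 in controls. Red cell precursors carry much transferrin receptor, and the 13 erythroid markers summed to 6599 and 5176 FPKM in the ERα-deficient-labelled libraries, against 262 and 8264 FPKM in controls, with 3 of the 13 listed at 0 in control 1. Hbb-bs, an adult beta globin gene, had 2744 and 2227 FPKM in the ERα-deficient-labelled libraries, against 83.3 and 3579 FPKM in controls. Control 1 was thus the lowest and control 2 the highest library for Tfrc and for the erythroid sum alike. The ERα-deficient-labelled libraries did not share an order, with library 1 higher for the erythroid sum and library 2 higher for Tfrc. The part of the erythroid transcripts in the level of Tfrc was not tested.

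Other genes of iron uptake, storage and export were mostly higher in the ERα-deficient-labelled libraries, on the deposited scale and on that of T cell markers. Of 11 tested, 10 had a higher and 1 a lower mean, where 46.4% of all tested genes had a higher one, 6 were higher and 1 lower without overlap (54.5% and 9.1%, against 23.2% and 25.7% of all tested genes), and the median difference was 0.34 (2.51 on the scale of T cell markers). limma called 0, with 3 higher and 1 lower at an unadjusted p under 0.05 (9.1% and 6.8% of all tested genes). Voom called 2 of the 5 it could test, Slc40a1 and Ftl1, as higher, where it called 93 of all 8093 genes it tested (1.15%) as higher. Fth1, the heavy chain of the iron store ferritin, had 1337 and 985 FPKM in the ERα-deficient-labelled libraries, against 237 and 363 FPKM in controls (difference 1.97 ± 0.32, SE; adjusted p = 0.12 in limma). Ftl1, the light chain, had 911 and 911 FPKM, against 107 and 255 FPKM in controls (difference 2.46 ± 0.44, SE; adjusted p = 0.129 in limma), and its transcripts share sequence with 13 other genes. Slc40a1, the iron exporter ferroportin of macrophages, had 109 and 170 FPKM in the ERα-deficient-labelled libraries, against 1.26 and 21.2 FPKM in controls (difference 4.27 ± 1.05, SE; adjusted p = 0.174 in limma). Aco1 and Ireb2, which encode the iron regulatory proteins that bind the Tfrc elements, differed by 0.14 ± 0.49 and 0.38 ± 0.45 (SE; adjusted p = 0.908 and 0.718 in limma). The macrophage markers given above moved in the same direction as ferritin and ferroportin, with a median difference of 3.67, and their part in these levels was not tested.

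Odc1 (NCBI gene 18263; chromosome 12, 17544808 to 17551502, plus strand) encodes ornithine decarboxylase, the first enzyme of polyamine synthesis and a classic Myc target. It had 46.5 and 66.4 FPKM in the ERα-deficient-labelled libraries, against 57.0 and 58.3 FPKM in controls. The controls lay between the ERα-deficient-labelled libraries, and the difference was -0.05 ± 0.31 (SE). Its transcript shares sequence with 8 other genes, up to 1398 bases with Gm9260, so its level is uncertain. Among the other polyamine genes, Sat1 and Smox had the smallest unadjusted p. Sat1, which acetylates polyamines for export and breakdown, had 123 and 158 FPKM in the ERα-deficient-labelled libraries, against 21.2 and 54.9 FPKM in controls (difference 1.998 ± 0.49, SE; adjusted p = 0.174 in limma). Smox, spermine oxidase, had 36.8 and 10.7 FPKM, against 1.33 and 4.24 FPKM in controls (difference 2.59 ± 0.72, SE; adjusted p = 0.20 in limma). Of 14 tested polyamine genes, 9 had a higher and 5 a lower mean, 6 were higher and 2 lower without overlap (42.9% and 14.3%, against 23.2% and 25.7% of all tested genes), and the median difference was 0.36 (2.56 on the scale of T cell markers). limma called 0, with 3 higher and 0 lower at an unadjusted p under 0.05 (9.1% and 6.8% of all tested genes). Voom called 0 of the 8 it could test.

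Ncl, Npm1 and Nop56 encode abundant nucleolar proteins. Nucleolin binds nascent ribosomal RNA, nucleophosmin is a chaperone of late ribosome assembly and export, and Nop56 is a core protein of the box C/D particles that guide RNA methylation. Promoters of Ncl and Nop56 are printed because the first was lower and the second overlapped between the groups. Each is 250 bases before to 50 after the start site, from RefSeq on GRCm38.p6, at chr1:86359406-86359705 (minus strand) and chr2:130274162-130274461 (plus strand), with GC boxes (CCGCCC or GGGCGG) in capitals.
Ncl promoter: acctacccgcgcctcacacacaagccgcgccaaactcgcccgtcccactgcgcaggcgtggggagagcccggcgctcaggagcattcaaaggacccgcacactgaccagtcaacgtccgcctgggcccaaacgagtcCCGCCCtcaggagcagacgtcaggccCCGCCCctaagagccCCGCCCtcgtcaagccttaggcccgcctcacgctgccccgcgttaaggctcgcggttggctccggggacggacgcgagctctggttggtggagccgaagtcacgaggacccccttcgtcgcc
Nop56 promoter: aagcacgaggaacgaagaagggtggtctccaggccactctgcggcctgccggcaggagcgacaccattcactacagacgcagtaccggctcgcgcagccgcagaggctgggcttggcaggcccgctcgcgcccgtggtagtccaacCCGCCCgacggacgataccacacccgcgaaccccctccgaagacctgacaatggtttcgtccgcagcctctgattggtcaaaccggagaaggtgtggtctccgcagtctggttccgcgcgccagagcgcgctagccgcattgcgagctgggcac
The Ncl window holds 3 GC boxes and the Nop56 window 1, and neither holds the Myc and Max motif CACGTG, which reads the same on both strands. Over 6 windows of 5 of the 9 genes (Ncl, Nop56, Odc1, Slc3a2 and 2 of Tfrc), 0 held CACGTG and 5 held a GC box on either strand (83.3%), against 7.2% and 35.7% of all 32851 promoter windows of the table. The 2 windows of Tfrc overlap each other, and 6 windows are too few to read 0 against 7.2%. The 6 windows had medians of 67.7% GC and 31 CG, against 52.7% and 7 over all windows. The shares with a GC box are thus not compared at equal base composition. Such matches describe the letters of these windows only.

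Ncl (NCBI gene 17975; chromosome 1, 86344719 to 86359455, minus strand) had 72.3 and 93.8 FPKM in the ERα-deficient-labelled libraries, against 139 and 153 FPKM in controls. Both ERα-deficient-labelled libraries lay below both controls, with means of 83.1 ± 15.1 and 146 ± 9.93 FPKM (SD, n = 2 each). The difference was -0.82 ± 0.28 (SE), between -1.0 and -0.64 under every alternative other than scaling to T cell markers, where it was 1.51 and still below the 1.92 of all genes. On a transcript model of 8202 bases, Ncl had about 293 and 422 fragments in the ERα-deficient-labelled libraries, against 778 and 824 in controls. In controls these are the most fragments of the 9 genes, while per length Npm1 and Slc3a2 stood higher. Snora75, a small nucleolar RNA gene inside Ncl whose 133 bases are also annotated as exon of Ncl on the same strand, was listed at 0 in both ERα-deficient-labelled libraries, against 17.8 and 18.7 FPKM in controls. On its 116 bases in RefSeq the control values come to only about 1.4 fragments each, and 1 fragment would be 17.5 and 15.7 FPKM in the ERα-deficient-labelled libraries, so no difference was detectable at this depth.

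Npm1 (NCBI gene 18148; chromosome 11, 33152498 to 33164142, minus strand) had 299 and 318 FPKM in the ERα-deficient-labelled libraries, against 440 and 493 FPKM in controls. The groups did not overlap, with means of 308 ± 13.9 and 467 ± 37.5 FPKM (SD, n = 2 each) and a difference of -0.60 ± 0.24 (SE). On the scale of T cell markers it was 1.76, below the 1.92 of all genes. Its transcripts share up to 876 bases with 5 other genes, 1 of them in the table. Ncl and Npm1 kept a similar proportion to each other, with Npm1 at 4.13 and 3.39 times Ncl in the ERα-deficient-labelled libraries, against 3.16 and 3.22 times in controls. Nop56 (NCBI gene 67134; chromosome 2, 130274367 to 130279313, plus strand) had 39.9 and 38.7 FPKM in the ERα-deficient-labelled libraries, against 37.0 and 53.8 FPKM in controls. The groups overlapped, and the difference of -0.18 ± 0.33 (SE) was 0.09 without control 2. Nop56 shares up to 760 bases with 4 other genes, and its annotated exons overlap 4 small nucleolar RNA genes on the same strand (70 to 100 bases each) and Idh3b on the opposite strand (5 bases).

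**Figure D2:**
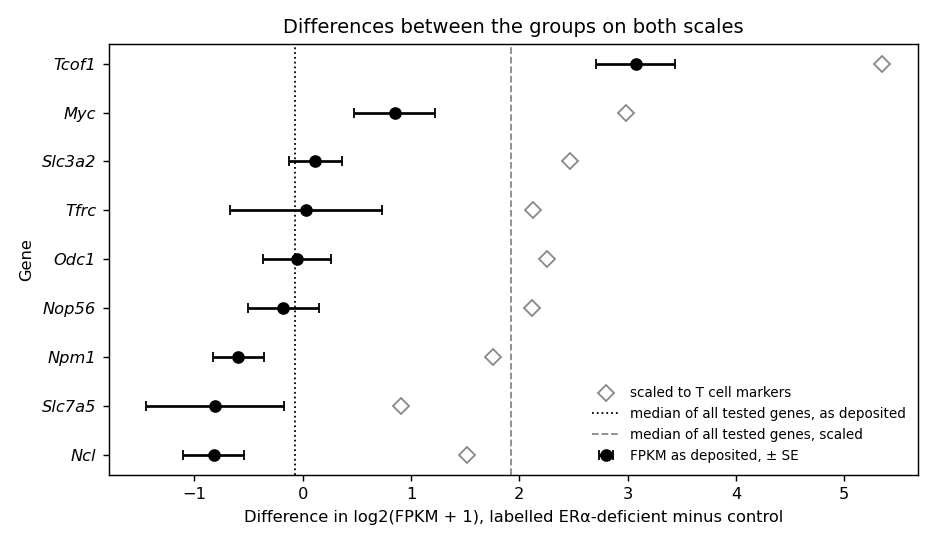
Difference in log2(FPKM + 1), ERα-deficient-labelled libraries minus control, for each gene as deposited (filled circles with SE, 2 libraries a group) and scaled to T cell markers (open diamonds), with the median of all tested genes on each scale (dotted line, -0.07; dashed line, 1.92). Tcof1 lies furthest right on both scales at 3.07 and 5.34, and Ncl, Npm1 and Slc7a5 lie left of the line on both.

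Tcof1 (NCBI gene 21453; chromosome 18, 60813738 to 60848983, minus strand) encodes treacle, a nucleolar phosphoprotein that binds RNA polymerase I and its factor UBF and promotes transcription of ribosomal DNA; in humans, mutations of TCOF1, POLR1C or POLR1D cause Treacher Collins syndrome. It had 180 and 230 FPKM in the ERα-deficient-labelled libraries, against 17.7 and 30.6 FPKM in controls. Both ERα-deficient-labelled libraries stood far above both controls, with means of 205 ± 35.0 and 24.2 ± 9.14 FPKM (SD, n = 2 each), a ratio of 8.48. The difference of 3.07 ± 0.37 (SE) exceeded the gaps of 0.35 and 0.76 between the libraries within each group, and ranked 179 from the top among the 12896 tested genes. Its level rests on about 403 and 572 fragments in the ERα-deficient-labelled libraries, against 54.7 and 90.9 in controls on the shorter transcript of 4529 bases. No other annotated gene shares an exon with Tcof1, and no transcript of another gene shares 100 bases with it at the identity searched. It lay between 2.69 and 3.45 under every alternative run on it other than scaling to T cell markers, where it was 5.34 against 1.92 for all genes; voom weights could not be had for it, since it has more than 1 transcript.

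Against the other nucleolar genes, Tcof1 took another place in each group. By level it stood at rank 3 of the 9 genes in both ERα-deficient-labelled libraries, against rank 6 in both controls. Per length, its level was 2.49 and 2.45 times that of Ncl in the ERα-deficient-labelled libraries, against 0.127 and 0.20 times in controls. Set against Nolc1, a related nucleolar phosphoprotein that binds small nucleolar particles, it was 9.81 and 13.1 times as high in the ERα-deficient-labelled libraries, against 0.642 and 0.854 times in controls. Nolc1 itself had 18.4 and 17.5 FPKM in the ERα-deficient-labelled libraries, against 27.6 and 35.9 FPKM in controls (difference -0.78 ± 0.33, SE, with adjusted p = 0.336 in limma). On the scale of T cell markers the difference of Nolc1 was 1.48, below the 1.92 of all genes. A ratio between genes within a library does not depend on how the libraries are scaled.

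The nearest gene of the table to Tcof1 is Cd74, which encodes the invariant chain of class II histocompatibility molecules in dendritic cells, macrophages and B cells. It lies 1086 bases away on the opposite strand, with the 3′ ends of both genes facing each other. Cd74 had 2406 and 2251 FPKM in the ERα-deficient-labelled libraries, against 37.4 and 636 FPKM in controls (difference 3.90 ± 1.23, SE; adjusted p = 0.236 in limma). Tcof1 and Cd74 did not keep a fixed proportion, with Tcof1 at 0.075 and 0.102 times Cd74 in the ERα-deficient-labelled libraries, against 0.474 and 0.0482 times in controls. Macrophage and dendritic cell markers, with median differences of 3.67 and 2.31, moved in the same direction as Tcof1. NK cell (1.82), erythroid (1.64), neutrophil (1.08) and B cell (1.06) markers also had positive medians. Without overlap, 6 of 10, 2 of 13, 8 of 14 and 2 of 4 tested genes of these lists were higher. These are 60%, 15.4%, 57.1% and 50%, against 23.2% of all tested genes. In the same order, 1, 0, 0 and 1 were lower without overlap. The erythroid sum was highest in control 2. The part of Cd74 and of these cells in the level of Tcof1 was not tested.

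By Euclidean distance between values of log2(FPKM + 1) centred on each gene's mean over the 4 libraries, computed over 11640 genes, the 3 genes most like Tcof1 were F13a1, Col14a1 and Fcgr2b, at distances of 0.17, 0.20 and 0.21. F13a1, the clotting factor XIII subunit made by monocytes and tissue macrophages, had 7.71 and 11.5 FPKM in the ERα-deficient-labelled libraries, against 0 and 0.77 FPKM in controls. Col14a1, a collagen gene, had 7.32 and 11.5 FPKM, against 0 and 0.69 FPKM in controls. Both genes were at or near 0 in controls, where the 1 added to FPKM limits the log2 difference. Their small distances to Tcof1 depend on that added value. Fcgr2b, the inhibitory Fc receptor of myeloid and B cells, had 32.6 and 43.4 FPKM in the ERα-deficient-labelled libraries, against 2.05 and 4.18 FPKM in controls. Of the other 8 genes the nearest to Tcof1 was Myc, at a distance of 2.39 and a rank of 1725. Nearest to Myc were Nup133, a nuclear pore gene, the zinc finger gene Zfp770 and the small GTPase gene Rap2b, at distances of 0.08, 0.08 and 0.09. Nup133 had 17.1 and 14.9 FPKM in the ERα-deficient-labelled libraries, against 10.3 and 7.67 FPKM in controls. With 4 libraries such likeness is a description only.

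**Figure D3:**
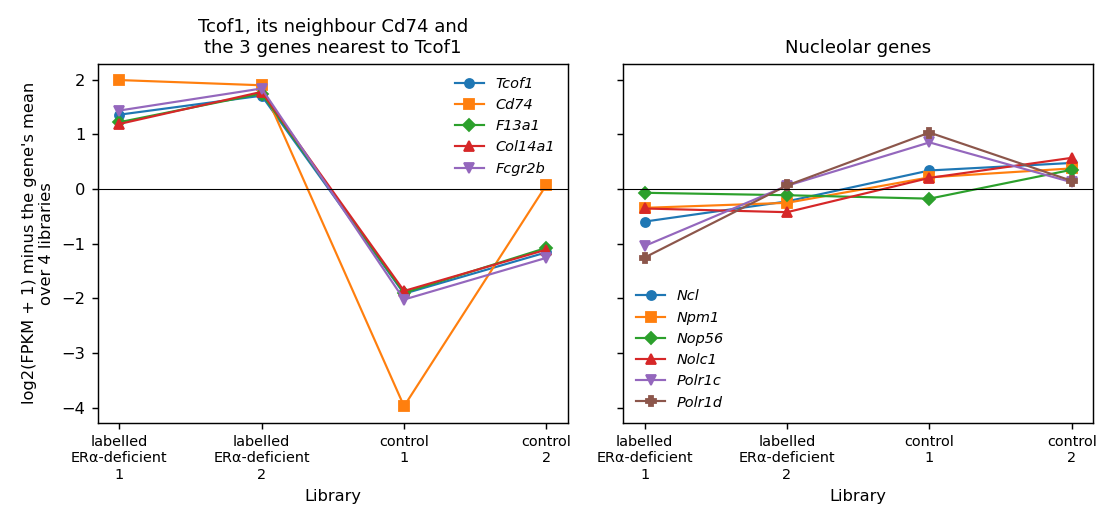
log2(FPKM + 1) minus each gene's mean over the 4 libraries, for Tcof1, its neighbour Cd74 and its 3 nearest genes (left) and for nucleolar genes (right); lines only join the points of 1 gene. The left-hand genes are high in both ERα-deficient-labelled libraries and Cd74 differs between controls, while Ncl, Npm1 and Nolc1 are lower in both ERα-deficient-labelled libraries on this scale. When scaled to T cell markers these 3 are higher, by less than the 1.92 of all genes.

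Genes of the machinery that treacle and the other nucleolar proteins serve had mostly lower means in the ERα-deficient-labelled libraries on the deposited scale, whereas on the scale of T cell markers 1 of 104 was lower and their median of 1.66 lay below the 1.92 of all genes. As deposited, 77 of 104 tested genes of 4 lists had a lower mean, against 53.6% of all tested genes, and 43 were lower (41.3%) and 6 higher (5.8%) without overlap, against 25.7% lower and 23.2% higher of all tested genes. Their median difference was -0.39, between -0.24 and -0.45 when each library was left out in turn, with 72 to 78 lower means. Tcof1, which was in none of these lists, lay above all 104, of which the highest were Nip7 at 1.35 and Polr2k at 1.24. None of the 104 was called by limma or among those that voom could test.

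RNA polymerase I and its factors comprised 20 tested genes, 7 with a higher and 13 with a lower mean, 2 higher and 7 lower without overlap (10% and 35.0%, where all tested genes had 23.2% and 25.7%), and a median of -0.33 (1.80 on the scale of T cell markers). At an unadjusted p under 0.05, limma placed 1 higher and 1 lower (9.1% and 6.8% of all tested genes). Polr1c and Polr1d, the polymerase subunits that share the human syndrome with treacle, were lower where Tcof1 was higher on the deposited scale, and on that of T cell markers they had 1.16 and 1.10 against 5.34 for Tcof1 and 1.92 for all genes. Polr1c had 4.64 and 11.1 FPKM in the ERα-deficient-labelled libraries, against 20.0 and 11.7 FPKM in controls (difference -0.98 ± 0.53, SE; adjusted p = 0.435 in limma). Polr1d had 14.3 and 37.2 FPKM in the ERα-deficient-labelled libraries, against 73.8 and 39.5 FPKM in controls (difference -1.19 ± 0.56, SE; adjusted p = 0.375 in limma). Library 2 labelled ERα-deficient and control 2 nearly met in both genes. Taf1d, a subunit of the factor that selects the ribosomal DNA promoter, had 26.5 and 27.1 FPKM in the ERα-deficient-labelled libraries, against 53.3 and 53.1 FPKM in controls (difference -0.96 ± 0.29, SE; adjusted p = 0.223 in limma). Ubtf, which encodes the treacle partner UBF, had 31.7 and 35.1 FPKM in the ERα-deficient-labelled libraries, against 54.4 and 48.1 FPKM in controls (difference -0.60 ± 0.29, SE; adjusted p = 0.394 in limma).

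Proteins of the small nucleolar particles comprised 16 tested genes, 4 with a higher and 12 with a lower mean, 0 higher and 5 lower without overlap (31.2% lower, where all tested genes had 25.7%), and a median of -0.48 (1.69 on the scale of T cell markers). At an unadjusted p under 0.05, limma placed 0 higher and 1 lower (9.1% and 6.8% of all tested genes). Fbl, the methyltransferase that works beside Nop56, had 78.7 and 86.4 FPKM in the ERα-deficient-labelled libraries, against 133 and 86.9 FPKM in controls, so library 2 and control 2 nearly met. Rrp9, which binds the U3 particle, had 1.31 and 2.35 FPKM in the ERα-deficient-labelled libraries, against 4.70 and 6.90 FPKM in controls (difference -1.27 ± 0.51, SE; adjusted p = 0.312 in limma). Among 33 tested genes of the small subunit processome, 7 had a higher and 26 a lower mean, 2 were higher and 14 lower without overlap (6.1% and 42.4%, where all tested genes had 23.2% and 25.7%), and the median was -0.37 (1.60 on the scale of T cell markers). Of these 33 genes, limma placed 1 higher and 3 lower at an unadjusted p under 0.05 (9.1% and 6.8% of all tested genes). Nol10 had 9.99 and 7.33 FPKM in the ERα-deficient-labelled libraries, against 22.4 and 22.6 FPKM in controls (difference -1.29 ± 0.36, SE; adjusted p = 0.20 in limma), with sequence shared with 116 other genes. Nob1, the nuclease that makes the mature end of 18S RNA, had 1.22 and 4.38 FPKM in the ERα-deficient-labelled libraries, against 10.5 and 9.18 FPKM in controls (difference -1.65 ± 0.57, SE; adjusted p = 0.261 in limma).

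Large subunit assembly factors comprised 35 tested genes, 9 with a higher and 26 with a lower mean, 2 higher and 17 lower without overlap (5.7% and 48.6%, where all tested genes had 23.2% and 25.7%), and a median of -0.40 (1.69 on the scale of T cell markers). At an unadjusted p under 0.05, limma placed 1 higher and 4 lower (9.1% and 6.8% of all tested genes). Npm3, a relative of nucleophosmin, had 9.46 and 17 FPKM in the ERα-deficient-labelled libraries, against 52.7 and 33.9 FPKM in controls (difference -1.66 ± 0.43, SE; adjusted p = 0.185 in limma). Nip7 went the other way, with 252 and 290 FPKM in the ERα-deficient-labelled libraries, against 129 and 85.8 FPKM in controls (difference 1.35 ± 0.31, SE; adjusted p = 0.159 in limma), and its transcripts share sequence with 126 other genes. Among 28 further Myc target genes of nucleotide synthesis and translation, 4 had a higher and 24 a lower mean, 1 was higher and 13 lower without overlap (3.6% and 46.4%, where all tested genes had 23.2% and 25.7%), and the median was -0.38 (1.82 on the scale of T cell markers). limma called 0 of them, with 0 higher and 2 lower at an unadjusted p under 0.05 (9.1% and 6.8% of all tested genes). Voom called 0 of the 17 it could test. Nme1, a nucleoside diphosphate kinase, had 9.82 and 11.8 FPKM in the ERα-deficient-labelled libraries, against 28.2 and 22.2 FPKM in controls (difference -1.15 ± 0.35, SE; adjusted p = 0.229 in limma). Mthfd2, a mitochondrial enzyme of folate metabolism, had 7.72 and 6.93 FPKM in the ERα-deficient-labelled libraries, against 16.6 and 15.3 FPKM in controls (difference -1.03 ± 0.36, SE; adjusted p = 0.27 in limma). The T cell markers moved in the same direction as these lists, with a median of -2.54, and their part in the list medians was not tested.

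**Figure D4:**
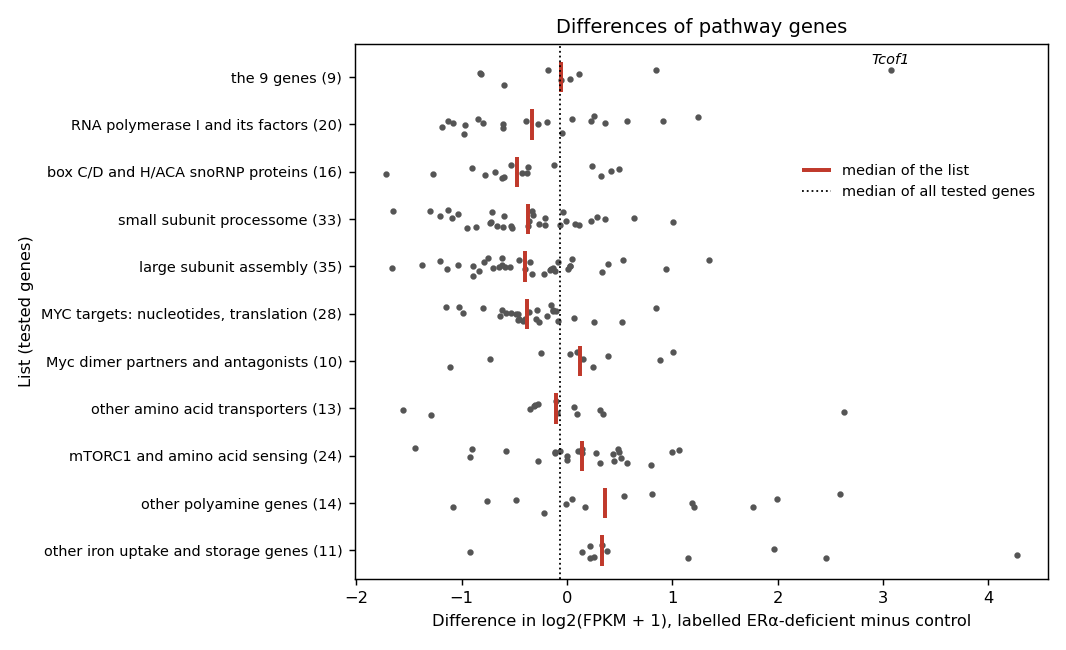
Difference in log2(FPKM + 1), ERα-deficient-labelled libraries minus control, for each tested gene (points) of the 9 genes and of 10 pathway lists, with each list's median (red bar) and the median of all tested genes (dotted line, -0.07). On the deposited scale shown, the ribosome and Myc target lists have medians between -0.33 and -0.48, which are above 0 but below 1.92 when scaled to T cell markers, and Tcof1 lies apart at 3.07.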

How the data were processed

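The values are FPKM per gene, computed by the authors and deposited as 1 table of 4 libraries. Per the submitters' processing notes, the build was mm10 and the tools were HISAT, Bowtie2 and RSEM, with no versions listed. Whether strand was used is not stated, and RSEM shares out fragments of similar transcripts by estimate. From the table, 23 symbols stored as dates were restored by their NCBI identifiers, of which 16183 matched RefSeq on GRCm38.p6. Gene positions are from that annotation.

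Depth was estimated from the steps of low FPKM values. Over 10348 single-transcript genes longer than 800 bases, 79.6% to 81.1% of values came within 0.2 of whole fragments at the best step, against 33.0% to 37.6% at displaced steps. Fragments of a gene are FPKM scaled by transcript length and this depth, 3 fragments on 2000 bases correspond to 2.2 to 3.04 FPKM, and intervals on them are exact Poisson 95% intervals for counting error only. A value of 0 is given as listed.

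Genes with a mean of at least 1 FPKM (12896 genes) entered a limma fit (limma 3.58.1, R 4.3.3) of log2(FPKM + 1) on group alone, with a variance trend; tests were two-sided, and p-values were adjusted by Benjamini-Hochberg. Differences are libraries labelled ERα-deficient minus control and understate those of low genes. Calls need an adjusted p under 0.05. At 2 libraries a group, the smallest two-sided exact permutation p is 0.33, so no such test is given. The alternatives were other pseudocounts, filters, variance models and scalings, voom weights on recovered fragments, a replicate block, no short RNAs and each library left out. Equal library numbers did not pair the libraries (r = -0.002 between deviations over 12896 genes), and nothing in the labels ties them to a shared animal.

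The 9 genes, the 10 pathway lists, the marker lists and the tests were chosen with earlier results of these data known. Of each list, the genes named are those called; where none was, the 2 of smallest unadjusted p are named. Beside these come annotated neighbours, the 3 genes most alike to Myc and to Tcof1, and, of the marker lists, only Hbb-bs, 1 of the 2 erythroid markers of highest mean, and Cd74, also a dendritic cell marker. Max, Slc40a1, Aco1, Ireb2, Fbl, Nolc1, Polr1c, Polr1d and Ubtf were named after their values were seen. Shared sequence means an alignment of at least 100 bases at 95% identity or more between GENCODE transcripts (BLAST 2.17.0). Promoters are RefSeq windows on GRCm38.p6, taken for 5 of the 9 genes. Windows on chromosome 18, where Tcof1 lies, were left out for the 9 genes but not from the 32851 windows they are set against.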

Additional observations from a re-analysis of the deposited data

How the results depend on the processing

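The whole-table counts depended on nearly every choice, while the differences of Myc, Slc7a5, Ncl, Npm1 and Tcof1 kept their sign under every alternative that included them other than scaling to T cell markers. On that scale Slc7a5, Ncl and Npm1 turned positive at 0.90, 1.51 and 1.76, each below the 1.92 of all genes. Low genes such as Slc7a5 shift less on that scale. Instead of 2 higher and 5 lower genes, limma called 0 and 0 with a pseudocount of 0.1, with no filter, with no variance trend and without short RNAs (unadjusted p under 0.05 for 1031 and 782, 1251 and 939, 1170 and 826, and 1201 and 896 genes). With a pseudocount of 0.5 or a mean of at least 5 FPKM, 0 were higher (1135 and 829 at an unadjusted p under 0.05), and 1 was with quantile scaling. Voom weights gave 93 higher and 32 lower of 8093 genes, and could not include Myc, Slc3a2, Npm1 and Tcof1, which have several transcripts. With a replicate block 0 and 0 genes were called (1117 and 771 at an unadjusted p under 0.05), and no pairing is given by the labels. Without any single library 0 and 0 were called, with 718 to 1040 higher and 492 to 1205 lower at an unadjusted p under 0.05.

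The median of the 8 genes other than Tcof1 lay between -0.56 and 0.02 when each library was left out, with -0.56 without control 1. Scaling to T cell markers gave 8631 higher (66.9% of 12896) and 40 lower genes and 5.34 for Tcof1 against 2.12 for the median of the other 8. It called genes in every list, all higher, which is read against that 66.9%: 9 of 10 Myc partners, 8 of 13 amino acid transporters, 10 of 11 iron genes, 13 of 14 polyamine genes, 14 of 20 of RNA polymerase I, 10 of 16 of the small nucleolar particles, 20 of 33 of the small subunit processome, 25 of 35 of large subunit assembly, 24 of 28 further Myc targets and 20 of 24 mTORC1 genes. Voom called 2 iron genes, and 149 of 160 list counts were as in the fit reported. In that fit each list count was 0. Apart from voom and scaling to T cell markers, the alternatives called few or no genes in the whole table. The list counts could thus hardly differ, and their sameness is no sign of stable list results. The cause of the shifts under voom and under scaling to T cell markers was not tested. Under the alternatives other than scaling to T cell markers, Slc3a2, Tfrc, Odc1 and Nop56 took both signs. They lay within -0.01 to 0.25, -0.96 to 1.01, -0.30 to 0.20 and -0.44 to 0.09. On the scale of T cell markers they had 2.47, 2.12, 2.26 and 2.12, against 1.92 for all genes.

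Depth limits Slc7a5 and Myc most, at 2.9 to 17.6 and 9.0 to 20.1 estimated fragments. Shared sequence leaves Slc3a2, Odc1, Npm1, Nop56 and many list genes uncertain.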

Other observations

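Small nucleolar RNA genes lie within the nucleolar genes described, and other short or non-coding genes lie close to them. Snord57, within Nop56, was listed at 0 in both ERα-deficient-labelled libraries and had 53.7 and 0 FPKM in controls 1 and 2, where 53.7 FPKM on its 63 bases is about 2.3 fragments, below the 3 that a count of 0 allows. C130036L24Rik, a long non-coding RNA gene 129 bases from Ncl, had 38.3 and 25.7 FPKM in the ERα-deficient-labelled libraries, against 32.5 and 27.7 FPKM in controls. Snhg1, a host gene of small nucleolar RNAs 118 bases from Slc3a2, had 17.9 and 20.1 FPKM in the ERα-deficient-labelled libraries, against 22.5 and 33.7 FPKM in controls, where Slc3a2 itself overlapped between the groups. Car5a, the mitochondrial carbonic anhydrase gene 8449 bases from Slc7a5, had 123 and 90.1 FPKM in the ERα-deficient-labelled libraries, against 48.0 and 41.8 FPKM in controls.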
